A study of Mus musculus with 282 samples.

Results

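Granulocyte-monocyte progenitors (GMPs) in G2 or M phase that had received TNF and answered with oscillatory NfkB dynamics were compared with G2M GMPs that answered the same cytokine with a transient response. A cell was taken from the authors' deposited cell tables where its cytokine was TNF, its phase was G2M and its response class was oscillatory or transient. This gave 36 oscillatory cells, 14 and 22 in the 2 experiments, and 39 transient cells, 14 and 25. Together they were 75 of the 238 cells in the cell tables, and 75 of the 128 cells given as G2M.

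TNF, an inflammatory cytokine, binds receptors whose signal removes IkB inhibitors from NfkB, so that the subunit p65 moves from the cytoplasm into the nucleus and binds target genes. Genes of IkB inhibitors are themselves targets of NfkB, and the newly made inhibitor returns p65 to the cytoplasm. This negative feedback can give repeated nuclear pulses or a single transient entry. GMPs, found in the bone marrow, are the precursors of granulocytes and of monocytes. In G2 a cell has copied its DNA and prepares to divide, and in M phase it divides, when most transcription is reduced.

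The oscillatory TNF cells, the transient TNF cells and the non-responsive cells with a blank in the cytokine column all came from bone marrow of GFP-p65/H2BmCherry mice, male and female, 12 to 19 weeks old. All groups, controls included, were homozygous for GFP-p65, in which p65 carries a green fluorescent protein, and heterozygous for H2BmCherry, a histone with a red fluorescent protein. Cells were cultured for 8 h under a confocal microscope, picked singly with a micromanipulator and sequenced by an adapted Smart-Seq2 protocol from polyadenylated RNA. One experiment filled 1 plate of the samples used here (the 1-plate experiment) and the other filled 2 (the 2-plate experiment). The blank was read as no cytokine, and the sources used here do not give the rule behind the response classes. The labels name no animals, so the experiment served as the replicate. P-values rest on how far differences between groups varied between these 2 experiments. This spread is pooled over all groups in the fit and partly across genes, and it may be technical. Cells were picked by hand, so numbers of cells describe the picking as well as the culture.

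The files identify genes by Ensembl identifier, and 0 of 55450 identifiers could be paired with a symbol. Genes are therefore given by identifier, without a function, and the GMP label was not checked against its markers. The lists of NfkB feedback genes, TNF receptors, NfkB targets, myeloid lineage genes and cell cycle genes, which are set by symbol, were not analysed here.

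G2M was the most frequent phase among TNF cells of both classes. Of the oscillatory cells, 36 of 56 were in G2M (64.3%, exact 95% interval 50.4% to 76.6%), and of the transient cells 39 of 76 (51.3%, 39.6% to 62.96%). The share in the oscillatory class was the larger in both experiments, at 14 of 20 oscillatory against 14 of 25 transient cells in the 1-plate experiment, and 22 of 36 (61.1%) against 25 of 51 (49.02%) in the 2-plate experiment. These intervals overlapped in both experiments, and they cover counting error only. S phase was given for 4 of 56 oscillatory and 19 of 76 transient cells, and G1 for 16 and 18.

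Phases were recomputed from the counts with the cyclone classifier, which calls phases from pairs of genes. It returned G2M for 35 of 36 oscillatory and 35 of 39 transient cells, S for 0 and 4, and G1 for 1 and 0. Over all 238 cells its G2M score had a Pearson correlation of 0.994 with the deposited score, as a description. The sources used here do not give the method behind the deposited phases. With scores this close on the same counts, it may be the same classifier, so the agreement is no independent check of the G2M label. The deposited G2M score, which runs from 0 to 1, had a median of 0.821 in oscillatory and 0.791 in transient cells of the 1-plate experiment. On Plate1 of the 2-plate experiment the medians were 0.952 in oscillatory and 0.900 in transient cells, and on Plate2 they were 0.893 and 0.784. The oscillatory median was thus the higher on all 3 plates, while the cells of the classes overlapped on each of them, with scores from 0.508 to 0.998 in oscillatory and 0.488 to 0.994 in transient cells.

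Depth and library complexity overlapped between the classes. Oscillatory cells had median depths of 950618, 2080435 and 1746994 reads assigned to genes on the 1-plate experiment's plate, Plate1 and Plate2, and transient cells had 784750, 1856249 and 2017732. Median numbers of detected genes were 10182, 9807 and 9885 in oscillatory cells and 9914, 9582 and 10085 in transient cells, in the same order. Single cells ranged from 193116 to 3380416 reads and from 5126 to 10631 detected genes. Fewer than 8000 genes were detected in 2 oscillatory cells and 1 transient cell, all on Plate2 of the 2-plate experiment. In the 2-plate experiment both classes came from the same 3 imaging positions, and in the 1-plate experiment 5 of 10 positions held both. TNF and blank cells shared 0 positions in either experiment. In the 1-plate experiment the 14 oscillatory cells had 14 different colony labels, and so had the 14 transient cells. Whether the classes shared colonies was not checked. Among all cells, 0 had identical count columns.

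**Figure D1:**
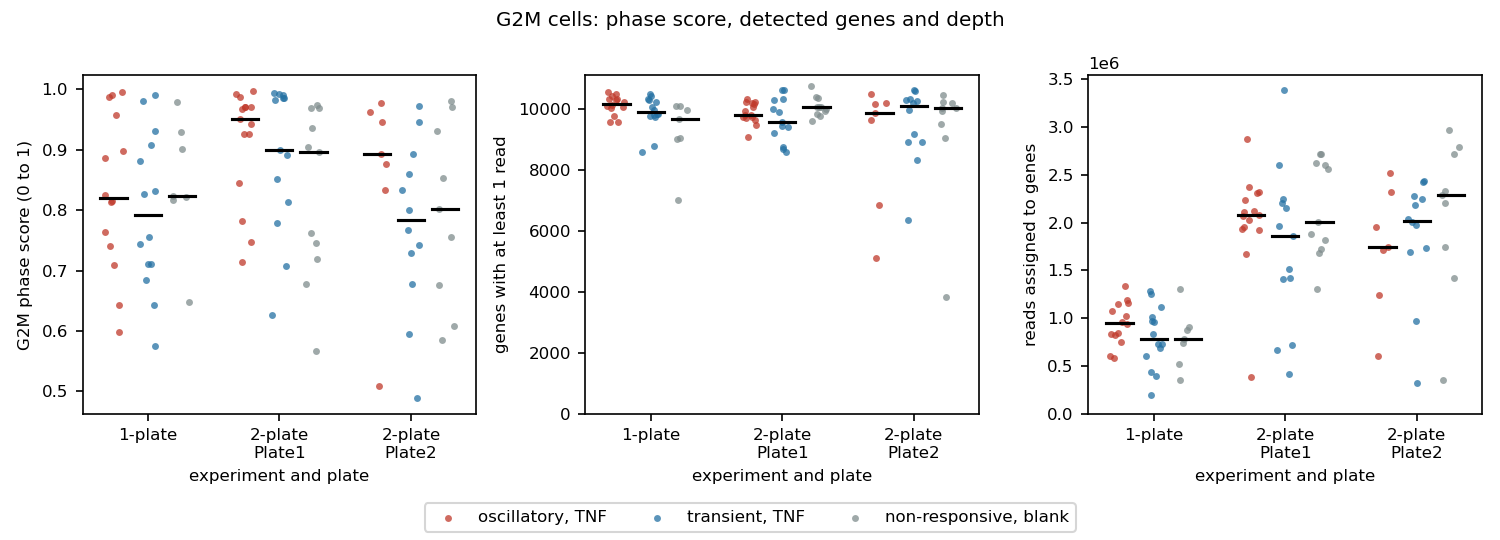
Deposited G2M phase score (left), number of genes with at least 1 read (middle) and reads assigned to genes (right) of each G2M cell, by experiment and plate. Points are cells (oscillatory TNF red, transient TNF blue, non-responsive blank grey) and black lines are medians; the median score of the oscillatory cells was above that of the transient cells on all 3 plates, with overlapping cells, and the 2-plate experiment was the more deeply sequenced.

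Within a plate, G2M cells of the same class were about as similar to each other as to cells of the other class. Rank correlations between pairs of cells over the 8305 genes tested had a median of 0.709 among oscillatory cells, 0.724 among transient cells and 0.702 between the classes in the 1-plate experiment. On Plate1 the medians were 0.709, 0.662 and 0.684 in the same order. On Plate2 they were 0.529, 0.653 and 0.632, and 2 of the 7 oscillatory cells there were among those with fewer than 8000 detected genes. These correlations describe pairs of cells that share plates and depth, and they were not tested.

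Oscillatory and transient G2M cells were then compared gene by gene, on reads summed per experiment and class. No gene of 8305 passed edgeR's quasi-likelihood test in G2M (0 called, 0%; smallest adjusted p = 0.13). At an unadjusted p under 0.05 there were 435 genes, which is 5.24% of those tested, 285 of them higher and 150 lower in oscillatory cells. The median absolute log2 fold change was 0.20, with a median standard error of 0.32. For 4732 genes (56.98%) the 95% interval of the difference lay within 2-fold in either direction. For the other genes a 2-fold difference was not excluded. DESeq2 called 44 genes (0.53%) and limma 18 (0.217%) in the same comparison.

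The experiments shared part of the direction of the differences. Between oscillatory and transient G2M cells, 63.3% of the 8305 genes had the same sign in both experiments, with a Pearson correlation of 0.39 and a Spearman correlation of 0.34 across genes, which are not independent replicates. In both experiments, 86 genes were at least 2-fold higher and 31 at least 2-fold lower in oscillatory cells on the log2(CPM + 1) scale, where CPM is reads per 1000000 reads of the sum or cell. On all 3 plates these numbers were 34 and 11. In cells of G1 or S phase of the same classes, 321 genes were at least 2-fold higher and 248 at least 2-fold lower in oscillatory cells in both experiments.

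The 2 genes with the smallest p among those higher in oscillatory G2M cells were ENSMUSG00000034947 and ENSMUSG00000030560, and neither passed the test. Both were chosen out of all genes tested by this same comparison, with a shared direction in both experiments required. Their values are therefore a description and no independent evidence, and their 95% intervals are not adjusted for the choice. ENSMUSG00000034947 had 49.3, 45.3 and 64.02 CPM in the oscillatory sums of the 1-plate experiment, Plate1 and Plate2, 8.02, 9.75 and 9.02 CPM in the transient sums, and 15.9, 19.0 and 19.4 CPM in the blank sums. The lowest oscillatory sum was above all 3 transient sums, and the blank sums lay between the classes. Single oscillatory cells had from 0 to 274 CPM with a median of 17.2 in the 1-plate experiment, and from 0 to 222 with a median of 11.1 in the 2-plate experiment. Single transient cells had from 0 to 25.1 CPM with a median of 7.26, and from 0 to 84.1 with a median of 3.17. Cells with at least 1 read were about as frequent, at 11 of 14 and 14 of 22 oscillatory cells and 9 of 14 and 16 of 25 transient cells, and the medians per cell differed less than the sums. In the 1-plate experiment 1 cell gave 55.96% of the oscillatory reads, on Plate1 33.3% and on Plate2 59.3%. Without the cell with the most reads in each sum, the sums were 24.1, 32.5 and 32.9 CPM in oscillatory and 6.65, 6.89 and 7.55 CPM in transient cells. On the mean log2(CPM + 1) over cells the difference was 1.08 (limma, adjusted p = 0.66). The log2 fold change was 2.57 ± 0.35 (SE, n = 2 experiments, 95% interval 1.80 to 3.33, edgeR adjusted p = 0.13).

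ENSMUSG00000030560 had 574, 629 and 356 CPM in the oscillatory sums of the 1-plate experiment, Plate1 and Plate2, 248, 317 and 215 CPM in the transient sums, and 261, 249 and 334 CPM in the blank sums. All 3 oscillatory sums were above the transient and the blank sums. It was read in all 36 oscillatory and in 38 of 39 transient cells (14 of 14 and 24 of 25 by experiment). Single cells gave at most 30.03% of the reads of an oscillatory sum and 41.4% of those of a transient sum. Medians per cell were 588 and 464 CPM in oscillatory cells of the 1-plate and the 2-plate experiment, and 227 and 181 CPM in transient cells. Cells ranged from 23.5 to 1572 CPM in the oscillatory and from 0 to 875 CPM in the transient class, and thus overlapped. The log2 fold change was 1.17 ± 0.18 (SE, n = 2 experiments, 95% interval 0.77 to 1.58, edgeR adjusted p = 0.23).

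The 2 genes with the smallest p among those lower in oscillatory G2M cells were ENSMUSG00000035835 and ENSMUSG00000057729, which did not pass either. They were chosen by the same rule, so their values and unadjusted 95% intervals are a description too. ENSMUSG00000035835 had 17.1, 25.5 and 19.6 CPM in the oscillatory sums of the 1-plate experiment, Plate1 and Plate2, 55.5, 61.3 and 79.6 CPM in the transient sums, and 45.05, 102 and 96.8 CPM in the blank sums. The oscillatory sums were below all others. Medians per cell were 1.08 and 15.8 CPM in oscillatory cells of the 1-plate and the 2-plate experiment, 37.2 and 42.8 CPM in transient cells, and 47.6 and 96.3 CPM in blank cells. It was read in 8 of 14 and 15 of 22 oscillatory cells and in 11 of 14 and 20 of 25 transient cells. The log2 fold change was -1.59 ± 0.30 (SE, n = 2 experiments, 95% interval -2.26 to -0.93, edgeR adjusted p = 0.27).

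ENSMUSG00000057729 had 209.6, 406 and 184 CPM in the oscillatory sums, 451, 576 and 723 CPM in the transient sums, and 544, 1075 and 423 CPM in the blank sums, in the same order of plates. The oscillatory sums lay below the transient and the blank sums on each plate and over all plates. It was read in all 36 oscillatory and all 39 transient cells. Medians per cell were 130 and 223 CPM in oscillatory cells of the 1-plate and the 2-plate experiment, against 298 and 395 CPM in transient cells. Cells ranged from 60.7 to 955 CPM in the oscillatory and from 58.97 to 3276 CPM in the transient class. The log2 fold change was -0.98 ± 0.20 (SE, n = 2 experiments, 95% interval -1.41 to -0.54, edgeR adjusted p = 0.27).

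Another 4 genes had been named earlier from a comparison of these classes over all phases, which included these G2M cells, so their values in G2M are a description of where that difference lay and no independent evidence. ENSMUSG00000035493 had 218, 228 and 229 CPM in the oscillatory sums of the 1-plate experiment, Plate1 and Plate2, 42.4, 59.4 and 37.5 CPM in the transient sums, and 21.7, 50.99 and 148 CPM in the blank sums. The oscillatory sums were above all others, but single cells weighed heavily in them, with 34.8%, 67.7% and 72.01% of the oscillatory reads in 1 cell of the 1-plate experiment, Plate1 and Plate2. Without the cell with the most reads in each sum, they were 152, 78.8 and 81.03 CPM in oscillatory and 20.3, 10.8 and 9.68 CPM in transient cells. It was read in 12 of 14 oscillatory cells (exact 95% interval 57.2% to 98.2%) and 19 of 22 (65.1% to 97.1%), and in 7 of 14 transient cells (23.04% to 76.96%) and 11 of 25 (24.4% to 65.1%). Its log2 fold change in G2M was 2.35 ± 0.40 (SE, n = 2 experiments, 95% interval 1.46 to 3.25, edgeR adjusted p = 0.27).

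ENSMUSG00000039109 had 69.2, 35.04 and 33.1 CPM in the oscillatory sums, 22.2, 9.35 and 2.24 CPM in the transient sums, and 40.1, 41.6 and 35.2 CPM in the blank sums. The transient sums were the lowest on every plate, and on Plate1 and Plate2 the blank sums were above the oscillatory ones. On Plate2 84.3% of the oscillatory reads came from a single cell. Without the cell with the most reads in each sum, the sums were 56.7, 25.4 and 6.06 CPM in oscillatory and 17.9, 6.25 and 1.41 CPM in transient cells. In G2M the log2 fold change was 2.11 ± 0.66 (SE, n = 2 experiments, edgeR adjusted p = 0.73).

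The other 2 of these genes rested on few cells. ENSMUSG00000056054 had 0.0753 and 2.47 CPM in the oscillatory sums of the 1-plate and the 2-plate experiment, against 3.92 and 141 CPM in the transient sums. It was read in 1 of 14 and 7 of 22 oscillatory cells and in 5 of 14 and 13 of 25 transient cells, and in the 2-plate experiment 80.4% of the transient reads lay in a single cell. In G2M the log2 fold change was -5.32 ± 1.45 (SE, n = 2 experiments, edgeR adjusted p = 0.53). ENSMUSG00000056071 was read in 0 of 14 and 0 of 22 oscillatory G2M cells, which allows shares of up to 23.2% and 15.4% (exact 95% bounds), and in 1 of 14 and 8 of 25 transient cells. In the 2-plate experiment 91.2% of the 4102 transient reads lay in a single cell, and the gene was below the low-count filter and not tested.

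**Figure D2:**
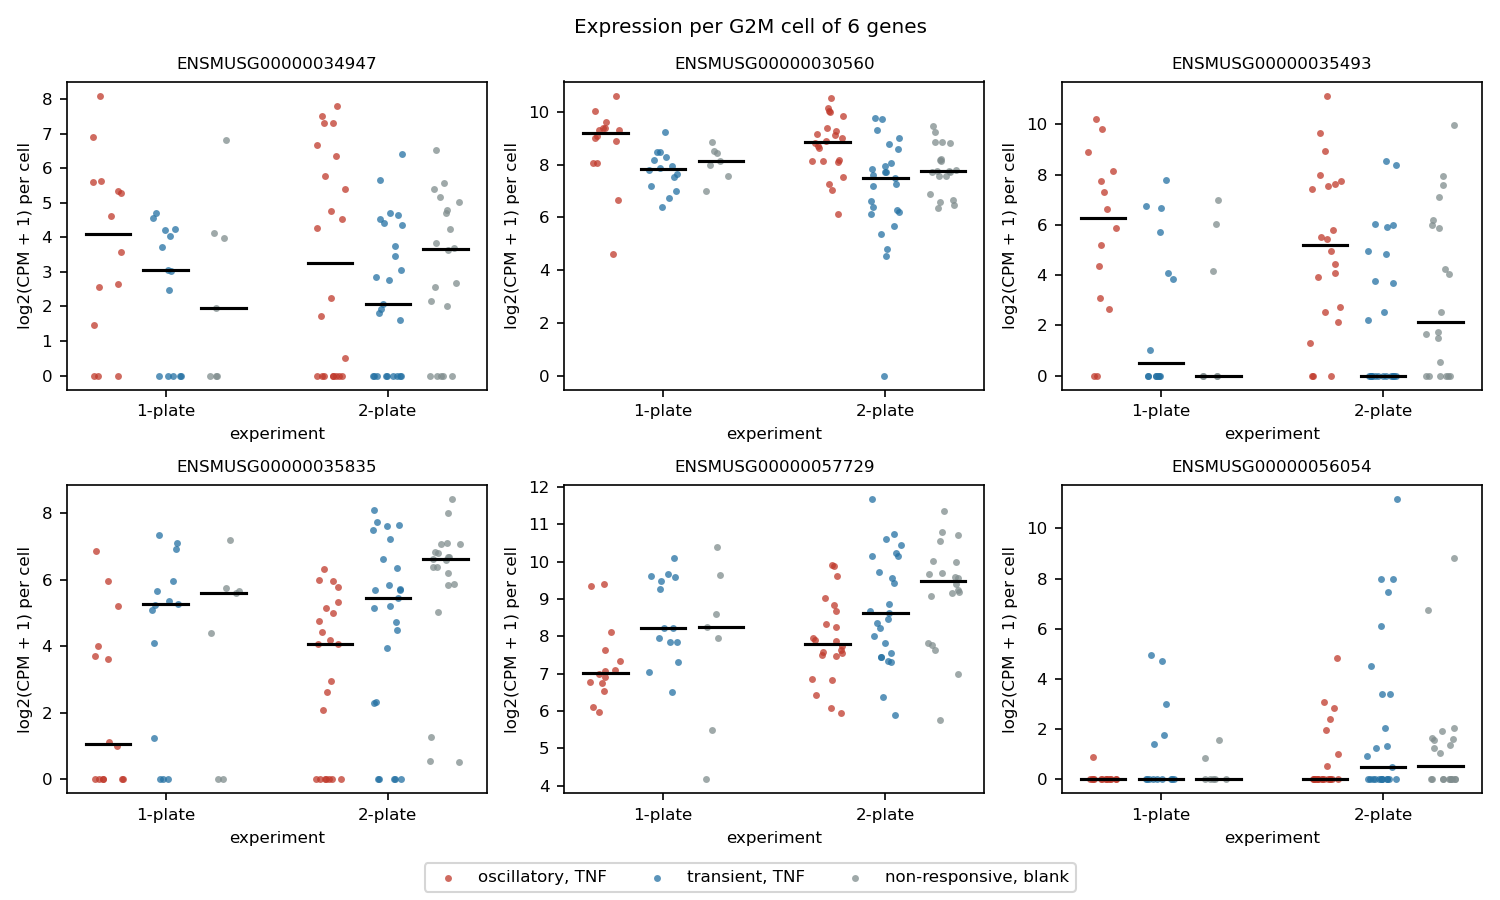
Level per G2M cell, as log2(CPM + 1), of 2 genes with higher sums (ENSMUSG00000034947, ENSMUSG00000030560) and 2 with lower sums (ENSMUSG00000035835, ENSMUSG00000057729) in oscillatory cells, and of 2 genes named earlier (ENSMUSG00000035493, ENSMUSG00000056054), by experiment. Points are cells (oscillatory TNF red, transient TNF blue, non-responsive blank grey) and black lines are medians; the classes overlapped for each gene, and ENSMUSG00000056054 was at 0 in most cells of both classes.

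The same classes were compared in G1 or S phase, to set the G2M result beside other phases of the cycle. In that comparison 338 genes rose and 135 fell in oscillatory against transient cells, which is 473 of 8305 or 5.7% (edgeR's quasi-likelihood test, adjusted p under 0.05, n = 2 experiments). The higher genes were 4.07% and the lower genes 1.63% of those tested. These calls came from fewer cells than the comparison in G2M, with 6 and 14 oscillatory and 11 and 26 transient cells by experiment. The count was 105 without Plate1, 417 without Plate2 and 408 without the 1-plate experiment. Every fit without the 1-plate experiment used sums per plate, so its replicates were the plates of the 2-plate experiment and not experiments. The phases within the G1/S bin differed between the classes, with 16 G1 and 4 S cells in the oscillatory and 18 G1 and 19 S cells in the transient class. With G1 cells alone in the bin, an alternative chosen after seeing the data, 614 genes were called. That fit took sums of at least 4 cells, with 4 and 12 oscillatory and 4 and 14 transient G1 cells by experiment. The part of the S cells in these counts was not tested.

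The genes that rose in G1/S were mostly higher, by less, in oscillatory G2M cells, which are other cells of the same plates. Of the 473 genes called in G1/S, 423 (89.4%) had the same sign in G2M, against 68.02% of all 8305 genes. Of the 338 genes that rose in G1/S, 328 (97.04%) were higher in oscillatory G2M cells, with a median log2 fold change of 0.63 in G2M and 1.57 in G1/S. Of the 135 that fell in G1/S, 95 (70.4%) were lower in oscillatory G2M cells, a share near that of all genes, with medians of -0.25 in G2M and -1.41 in G1/S. The G1/S values chose these genes so their size there is no independent estimate. At an unadjusted p under 0.05 in G2M with the G1/S sign there were 187 of the 473 (39.5%), against 4.96% of all genes. Both comparisons came from the same fit, which shares its estimate of a gene's spread. Calls in G1/S favour genes of low spread, so the share of all genes is no matched baseline for these p-values. Without Plate1, Plate2 or the 1-plate experiment, 93.2%, 85.5% and 92.1% of those of the 473 that were tested in G2M kept the sign.

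**Figure D3:**
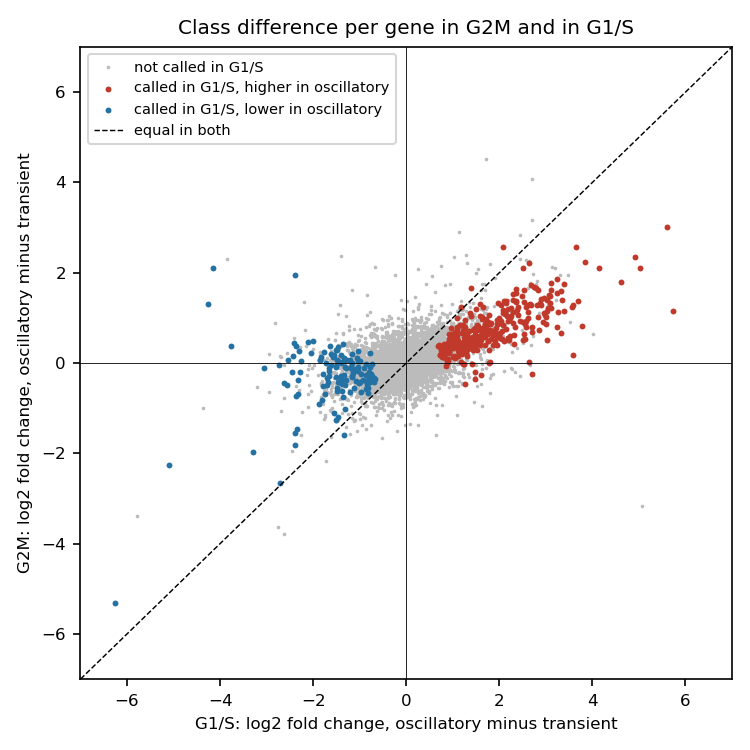
Log2 fold change of oscillatory minus transient TNF cells in G2M (vertical) against that in G1/S (horizontal) for 8305 genes, with genes called in G1/S in red (338 higher in oscillatory cells) and blue (135 lower) and all others in grey; the dashed line marks equal values. The called genes had the same sign in G2M in 328 of 338 (red) and 95 of 135 (blue) cases and mostly lay nearer to 0 there.

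The difference between phases was itself tested, as the class difference in G2M minus the class difference in G1/S. No gene passed (0 of 8305 called, 0%, by edgeR's quasi-likelihood test; 443 at an unadjusted p under 0.05; smallest adjusted p = 0.30). DESeq2 called 15 genes with a positive and 31 with a negative difference, and limma 0. A call in G1/S and none in G2M therefore does not show that a gene's class difference depended on the phase. The 95% interval of this difference lay within 2-fold for 2140 genes (25.8%).

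Of the genes called in G1/S, ENSMUSG00000025044 and ENSMUSG00000021614 had the largest log2 fold changes among those higher in oscillatory cells, under the same conditions on direction and detection. In G2M cells, ENSMUSG00000021614 had 245 and 64.8 CPM in the oscillatory sums of the 1-plate and the 2-plate experiment, against 27.4 and 12.8 CPM in the transient sums. In G1/S cells it had 182 and 223 CPM in the oscillatory and 5.82 and 3.40 CPM in the transient sums. The log2 fold change was 3.01 ± 0.99 in G2M (edgeR adjusted p = 0.75) and 5.60 ± 1.14 in G1/S (SE, edgeR adjusted p = 0.020). ENSMUSG00000025044 had 72.9 and 50.2 CPM in the oscillatory and 29.8 and 27.6 CPM in the transient G2M sums, and 170 and 39.8 CPM in the oscillatory and 3.34 and 1.29 CPM in the transient G1/S sums. The log2 fold change of ENSMUSG00000025044 was 1.15 ± 1.15 in G2M (edgeR adjusted p = 0.9998) and 5.73 ± 1.43 in G1/S (SE, edgeR adjusted p = 0.045). In the 1-plate experiment 86.5% of the oscillatory G1/S reads of ENSMUSG00000021614 and 52.5% of those of ENSMUSG00000025044 came from 1 cell. Without Plate1 neither passed in G1/S, where the log2 fold changes of ENSMUSG00000021614 and ENSMUSG00000025044 were 5.37 and 5.91 (adjusted p = 0.068 and 0.10 by edgeR; over all alternatives 1.16e-05 to 0.069 and 1.16e-05 to 0.15).

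The 2 lower genes chosen in the same way were ENSMUSG00000029086 and ENSMUSG00000015053. ENSMUSG00000029086 had 4.29 and 5.55 CPM in the oscillatory and 10.8 and 43.1 CPM in the transient G2M sums, and 0 and 1.98 CPM in the oscillatory and 44.2 and 28.4 CPM in the transient G1/S sums. It was read in 2 of 14 and 6 of 22 oscillatory G2M cells, and in 4 of 14 and 17 of 25 transient G2M cells. Its log2 fold change was -2.25 ± 1.12 in G2M (edgeR adjusted p = 0.99) and -5.10 ± 1.32 in G1/S (SE, edgeR adjusted p = 0.04997). This call lay at the threshold and was lost under 6 of 14 alternatives. It did not pass in G1/S with relative log expression factors, the default filter, sums per plate, thinned cells or no experiment term, nor without the 1-plate experiment (log2 fold change -3.69, edgeR adjusted p = 0.28; over all alternatives 0.00063 to 0.28).

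For ENSMUSG00000015053 the direction in G2M differed between plates. It had 50.2, 54.8 and 9.40 CPM in the oscillatory and 12.5, 30.5 and 14.4 CPM in the transient G2M sums of the 1-plate experiment, Plate1 and Plate2. In G1/S it had 25.3, 5.16 and 5.20 CPM in the oscillatory and 348, 92.5 and 321 CPM in the transient sums. Fewer oscillatory than transient G2M cells had a read, with 5 of 14 and 8 of 22 against 7 of 14 and 17 of 25, and the medians per cell were 0 and 0 CPM against 1.14 and 1.36 CPM. Its log2 fold change was 1.31 ± 0.58 in G2M (edgeR adjusted p = 0.94) and -4.25 ± 0.66 in G1/S (SE, edgeR adjusted p = 0.0068). In G2M, 53.3% and 87.8% of the oscillatory reads came from 1 cell of each experiment, and in the 1-plate experiment 86.4% of the transient G1/S reads came from 1 cell. Without Plate2 and without the 1-plate experiment it did not pass in G1/S, where the log2 fold changes were -3.80 and -4.98 (adjusted p = 0.072 and 0.078 by edgeR; over all alternatives 8.99e-13 to 0.078).

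The genes of the cyclone classifier, which the recomputed phase calls rest on, were described as a list of cell cycle genes that the package itself gives by identifier. Of 303 classifier genes that are more often the higher member of a G2M pair, 261 were tested. In G2M, 139 of the 261 (53.3%) were higher in oscillatory cells, against 49.1% of all genes, and 0 were called. Their median log2 fold change was 0.01, against -0.01 over all genes. Cells of both classes were taken by a G2M label whose scores were close to those of this classifier. A class difference of these genes in G2M was thereby limited in advance. In G1/S, 10 of the 261 rose and 23 fell in oscillatory cells, with a median of -0.45, against -0.03 over all genes, of which 4.07% rose and 1.63% fell. The 273 tested genes that are more often the lower member of a G2M pair also had a negative median in G1/S, -0.22, with 1 that rose and 11 that fell, and in G2M 113 of them were higher, 0 were called and the median was -0.04. The S-phase share of the G1/S bin, given above, was lower in the oscillatory class, and its part in these values was not tested.

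Both classes of G2M TNF cells were also set against non-responsive blank G2M cells, 7 and 20 by experiment, comparisons that were chosen after seeing the data and that share the blank sums. Oscillatory G2M cells had 189 genes higher and 35 lower than blank cells, which is 2.7% of 8305 (edgeR, adjusted p under 0.05, n = 2 experiments). Transient G2M cells had 49 higher and 8 lower, which is 0.686%. The direct comparison of the classes above is the test of whether they differed, and a larger count for one class does not replace it. Without Plate1 the counts were 119 for the oscillatory and 33 for the transient class, and without the 1-plate experiment they were 131 and 28.

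The count of 0 in G2M depended on which sums entered the fit and on the tool. A fit on only the 4 oscillatory and transient G2M sums, which estimates the spread from these alone, called 394 genes higher and 166 lower in oscillatory cells, 6.55% of 8548. Its median standard error was 0.21, against 0.32 in the fit of 16 sums. With the 2 blank G2M sums added, an alternative chosen after seeing the data, edgeR again called 0, with 659 at an unadjusted p under 0.05. DESeq2 on the 16 sums called 34 higher and 10 lower, and limma on the mean log2(CPM + 1) over cells called 14 higher and 4 lower. Of the 44 DESeq2 calls 34 were also called in G1/S, as were 17 of the 18 limma calls and 214 of the 522 calls of the 4-sum fit that were tested in both. Of all 8305 genes, 5.7% were called in G1/S. DESeq2 and the G1/S test used the same 16 sums, so their overlap is no independent evidence for the G2M calls. The overlaps were not tested. ENSMUSG00000030560 and ENSMUSG00000035493 passed in all 3 of these fits, ENSMUSG00000034947 passed with DESeq2, in the 4-sum fit and on sums per plate, and ENSMUSG00000035835 and ENSMUSG00000057729 passed with DESeq2 and in the 4-sum fit. ENSMUSG00000039109 passed in the 4-sum fit, and ENSMUSG00000056054 passed with spike-in factors.

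**Figure D4:**
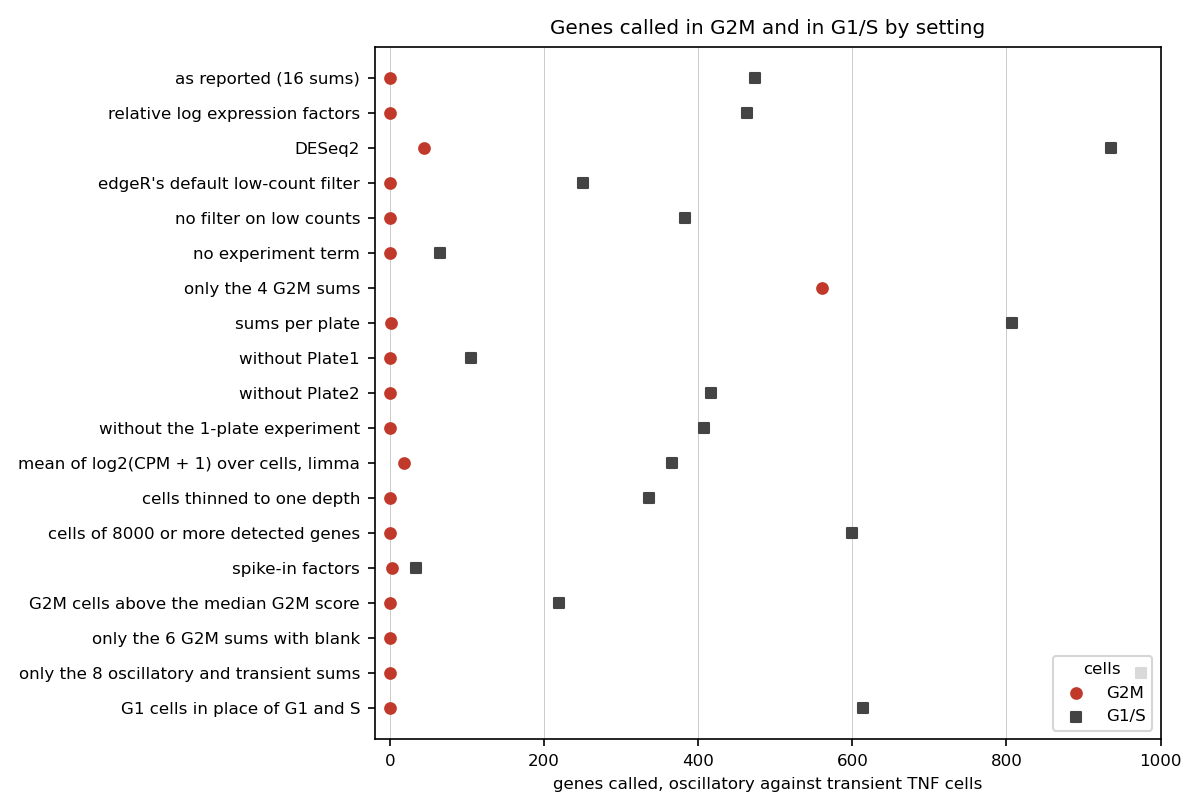
Number of genes called between oscillatory and transient TNF cells at an adjusted p under 0.05 (horizontal) under each setting (vertical), in G2M (red circles) and in G1/S (dark squares). G2M stood at 0 under most settings, at 44 with DESeq2, 18 with limma and 560 in the fit of the 4 G2M sums alone, and G1/S stood at 473 as reported; the 4-sum and 6-sum fits hold no G1/S sums.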

How the data were processed

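The authors' deposited tables hold raw read counts per gene for single wells, made with SAMtools, Subread 1.5.0 and featureCounts, per the submitters' processing notes. The sources used here do not give the genome build, the annotation or the strand setting, so overlapping genes and near-identical copies were not told apart. Reads carry no molecular identifiers. The exact intervals on shares of cells cover counting error only, and the intervals of log2 fold changes rest on the estimated spread between sums. The phase labels and the 3 phase scores per cell are the authors' deposited values.

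Columns were matched to samples by well and plate, and 357 columns without a matching sample were left out. The 92 ERCC spike-ins stayed out of library sizes. Each sample is 1 cell, so reads were summed per experiment, cytokine, response class and phase bin (G2M, or G1 and S) over at least 5 cells. This gave 16 sums of 5483155 to 44854758 reads, 13273287 and 42487531 in the oscillatory and 11220771 and 44854758 in the transient G2M sums. Genes at 10 CPM or more in 50% of the sums were tested with edgeR 4.0.16 (R 4.3.3): TMM factors, an experiment term, 5 residual and 5.67 prior degrees of freedom, quasi-likelihood test, two-sided, Benjamini-Hochberg at 0.05. The scripts were tested on simulated counts. Alternatives used DESeq2 1.42.0 and limma 3.58.1; phases were recomputed with scran 1.30.0.

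The cells, lists, tests and rule for named genes were chosen with earlier results of these data known. The rule takes called genes whose direction is shared by both experiments and that have a read in at least 33.3% of the cells, by size of change, or else the smallest p. It was limited to 2 genes per direction because identifiers have no names, and genes without a symbol, predicted genes and sex-linked genes could not be left out. Its use in G1/S was added after seeing the data.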

Additional observations from a re-analysis of the deposited data

Results flagged for a closer look

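ENSMUSG00000015053 had class differences of opposite sign in the 2 phase bins on the sums of both experiments, but not on all 3 plates. Its sums in G2M were 50.2 and 41.9 CPM in oscillatory and 12.5 and 22.5 CPM in transient cells, while in G1/S they were 25.3 and 5.18 CPM in oscillatory and 348 and 202 CPM in transient cells. The difference between the bins was 5.56 ± 0.87 on the log2 scale (SE, n = 2 experiments) and did not pass over all genes (edgeR adjusted p = 0.30, unadjusted p = 6.09e-05). On Plate2 of the 2-plate experiment the G2M sums were 9.40 CPM in oscillatory and 14.4 CPM in transient cells, the same sign as in G1/S. The oscillatory G2M sums of the 1-plate experiment and Plate1 rested on single cells, which gave 53.3% and 93.8% of the reads. Without the cell with the most reads in each class, the Plate1 sums were 3.68 CPM in oscillatory and 15.3 CPM in transient cells, and those of the 1-plate experiment were 25.7 and 4.77 CPM. The G2M blank sums were 542, 20.2 and 365 CPM in the 1-plate experiment, Plate1 and Plate2.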

How the results depend on the processing

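Between oscillatory and transient G2M cells edgeR's count of 0 held under 13 of 18 alternatives, and was 1 on sums per plate, 2 with spike-in factors, 18 with limma, 44 with DESeq2 and 560 in the fit of 4 G2M sums. Leaving out a plate or the 1-plate experiment gave 0 each time in G2M, 105 to 417 in G1/S, 0 to 2 for the difference between the bins, 119 to 175 for oscillatory against blank G2M cells and 28 to 55 for transient against blank G2M cells. Fits without the 1-plate experiment had the plates of the other experiment as replicates. DESeq2 called 936 genes in G1/S, 46 for the difference between the bins, 556 for oscillatory and 235 for transient against blank cells. Without the replicate block, that is without the experiment term, 0 genes were called in G2M, 65 in G1/S, 27 for oscillatory and 5 for transient against blank cells. Spike-in factors gave 34 in G1/S, 4 for the difference between the bins and 100 for oscillatory against blank cells, of which 96 were higher and 4 lower. They moved the median log2 fold change of all genes in G2M to 0.22 between the classes, to 0.34 for oscillatory and to 0.12 for transient against blank cells, from values within 0.03 of 0. Sums per plate gave 807 in G1/S and 351 for oscillatory against blank cells. The default filter gave 251 and 130 for the same comparisons. No filter gave 1 for the difference between the bins and 88 for transient against blank cells. With G2M cells above the median G2M score the counts were 219 in G1/S, 32 for oscillatory and 16 for transient against blank cells. The fit of 8 sums gave 974 in G1/S, and G1 alone gave 128 for oscillatory against blank cells; both were added after seeing the data. The causes were not tested. Of the 7 genes named in G2M with a test, all kept their direction under every alternative that tested them. They were named from these same cells, by this comparison or by an earlier one that included it. The alternatives refit the same cells or a part of them, so a kept direction is no independent evidence. Only 2 sums stand behind each class, and the sums of low genes rest on few cells.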
